A study of Homo sapiens with 24 samples.

Results

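HES1 and 9 further genes of the Notch pathway (HES4, HES6, HEY1, NRARP, NOTCH1, NOTCH2, NOTCH3, JAG1 and JAG2) were followed through 24 RNA sequencing libraries of the human ovarian cancer lines A2780 and ES2. They are 10 of the 28907 gene symbols of the deposited table. The list was chosen by measured values, namely the high HES1 level in luteolin-treated A2780 cells, so the A2780 luteolin values of all members are given as a description, without a test. A gene's level was its TPM, a share of the library's transcripts corrected for transcript length,, summed over the distinct transcripts that carry its symbol. The groups were A2780 with luteolin (a plant flavone) and A2780 with its solvent DMSO, A2780 with siVRK1 (an siRNA against the nuclear kinase VRK1) and A2780 with the control siRNA siCtrl, and the same 4 treatments of ES2, with 3 libraries per group. The genotype label was WT throughout. The sources used here give no dose or time, and each line is a single established line.

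The labels give the 3 libraries of a group no separate cultures, so a p-value reflects how far these samples scatter, which may be technical. The titles were used for grouping, since the cell line label counts upward within a line and the treatment label of later siVRK1 libraries reads siVRK2 or siVRK3. VRK1 itself had 7.98 to 11.3 TPM in A2780 siVRK1 libraries, against 53.6 to 55.2 TPM with siCtrl, and 2.92 to 4.2 TPM in ES2 siVRK1 libraries, against 62.2 to 66.2 TPM with siCtrl. Of 7 markers of ovarian carcinoma epithelium, PAX8, KRT7, WT1 and MUC16 stayed below 1 TPM in every A2780 library, and the 7 together summed to 5.42 to 12.1 TPM. In ES2 they summed to 636 to 992 TPM, carried by KRT7, KRT8 and KRT18, with MUC16 listed at 0. The 4 leukocyte markers summed to 0.165 to 0.569 TPM in A2780 and 0.154 to 1.98 TPM in ES2, with CD3E listed at 0 throughout and LYZ at up to 1.87 TPM in ES2. The 3 endothelial markers summed to 0.12 to 1.58 TPM in A2780 and 9.59 to 39.8 TPM in ES2, where the cadherin CDH5 held 8.52 to 39.3 TPM and VWF at most 0.0129 TPM. The 4 fibroblast markers summed to 6.26 to 13.3 TPM in A2780 and 12.2 to 129 TPM in ES2, where COL1A1 held 11.2 to 128 TPM.

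Notch receptors are membrane proteins that are cut when they meet a Jagged or Delta ligand on a neighbouring cell. ADAM proteases and gamma-secretase release the intracellular domain, which joins the DNA-binding protein RBPJ and a Mastermind coactivator on target promoters. Several HES and HEY genes, which encode basic helix-loop-helix repressors, and NRARP, which dampens the same complex, are among the best-known targets, although HES1 also responds to other signals in several cell types. The term target genes is used here for HES1, HES4, HES6, HEY1 and NRARP as a group, whether or not Notch induces each of them. In mouse cells the HES1 protein represses its own promoter through sequences called N boxes.

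The promoters of 4 target genes are shown because the presence of the core letters of the RBPJ motif, TGGGAA, differed among them. Each sequence holds the 150 bases before the RefSeq start on GRCh38.p14, read 5′ to 3′ on the gene's strand, with TGGGAA in capitals. The windows are chr3:194135998-194136147 on the plus strand for HES1, and, on the minus strand, chr1:1000098-1000247 for HES4, chr2:238240039-238240188 for HES6 and chr9:137302272-137302421 for NRARP.
HES1: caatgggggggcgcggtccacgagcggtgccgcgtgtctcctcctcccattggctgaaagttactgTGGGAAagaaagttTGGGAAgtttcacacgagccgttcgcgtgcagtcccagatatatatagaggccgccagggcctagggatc
HES4: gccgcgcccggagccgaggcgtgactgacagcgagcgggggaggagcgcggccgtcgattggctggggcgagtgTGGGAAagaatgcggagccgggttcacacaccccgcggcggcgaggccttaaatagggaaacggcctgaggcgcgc
HES6: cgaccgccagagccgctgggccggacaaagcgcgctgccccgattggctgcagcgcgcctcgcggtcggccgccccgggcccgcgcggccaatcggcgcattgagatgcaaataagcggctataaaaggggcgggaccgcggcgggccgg
NRARP: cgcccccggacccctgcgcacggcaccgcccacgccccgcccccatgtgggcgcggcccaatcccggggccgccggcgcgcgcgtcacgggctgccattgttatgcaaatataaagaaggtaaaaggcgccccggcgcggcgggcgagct

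The search covered both strands of 9 member promoters, from 250 bases before to 50 bases after the start. HES1 held 2 matches of TGGGAA, whose first bases lay 84 and 70 bases before the start, and HES4 held 1, which began 76 bases before it. The longer GTGGGAA, which overlaps a TGGGAA match, was found once in HES1 and once in HES4. No match of either was found in HES6, NRARP, NOTCH1, NOTCH2, NOTCH3, JAG1 or JAG2. Over 35116 promoters of the same length, 24% held TGGGAA, 3.8% held it at least 2 times, and 6.25% held GTGGGAA. The N box letters CACNAG matched 4 times in HES1, 2 times in NOTCH1, where the matches overlap, and once each in NRARP, NOTCH2 and NOTCH3. Of all promoters, 38% held at least 1 such match and 8.94% at least 2. These matches are descriptions of sequence, without a measure of binding, and their part in the levels given next was not tested.

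In A2780 cells, HES1 was far higher with luteolin than with DMSO, while the log2 fold changes of the other 4 target genes lay between −0.31 and 0.63, on both sides of 0. NOTCH1 was the member with the next largest difference, and NOTCH3, HES4 and HES6 were lower with luteolin. HES1 had 332, 284 and 293 TPM in the luteolin libraries, against 16.5, 14.3 and 15.2 TPM in the DMSO libraries. No luteolin library came near the range of DMSO. On the log2 scale of TPM + 1 the fold change was 4.22 ± 0.08 (standard error of the limma fit), or 4.0 after subtracting 0.22, the median change of all genes. HES1 stood 4th of 13012 genes by this fold change. In bulk RNA, a change in the number of expressing cells and a change in RNA per cell cannot be told apart.

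**Figure D1:**
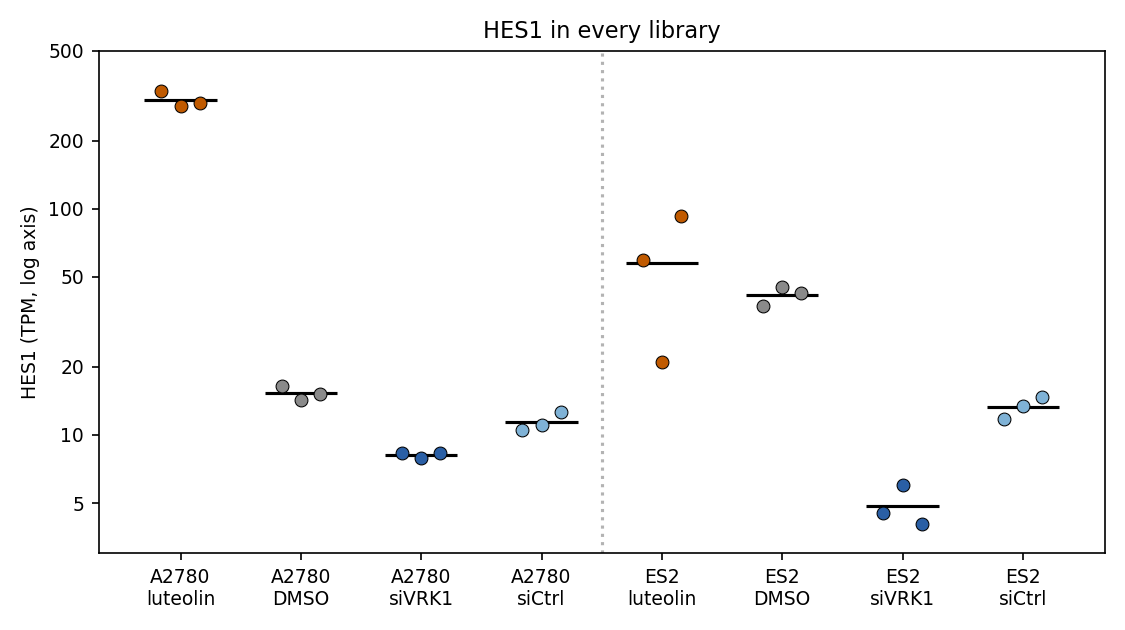
HES1 level in each of the 24 libraries, in TPM on a log axis, by line and treatment; points are libraries and bars are group means. The 3 A2780 luteolin libraries sit at 284 to 332 TPM, and the 3 ES2 luteolin libraries spread over 21 to 93.3 TPM on both sides of ES2 DMSO.

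No other target gene among the members differed by that much. HEY1, a repressor related to HES1, had 12.5, 11 and 8.51 TPM with luteolin, against 6.19, 6.42 and 6.84 TPM with DMSO, a log2 fold change of 0.63 ± 0.13, or 0.41 relative to the median. NRARP had 27.4, 25.9 and 24 TPM with luteolin, against 21.8, 21.7 and 23 TPM with DMSO. These NRARP groups did not overlap, but the log2 fold change of 0.20 ± 0.07 was −0.01 relative to the median, and it turned to −0.05 with median-of-ratios scaling and to −0.01 with quantile normalization.

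HES4, a close relative of HES1, lay at 33.3, 30 and 29.5 TPM with luteolin, against 38.8, 39.3 and 38 TPM with DMSO, −0.31 ± 0.07 on the log2 scale and −0.53 relative to the median. HES6, whose protein is known to counteract HES1, lay at 40.5, 36.7 and 35.3 TPM with luteolin, against 44.5, 45.4 and 45.3 TPM with DMSO, −0.26 ± 0.07 and −0.48 relative to the median. Every luteolin library was below every DMSO library for both genes. Of the 5 target genes, 3 were thus above and 2 below without overlap, and their median log2 fold change was −0.01 relative to that of all genes.

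On GRCh38 the receptor genes lie on the minus strand, NOTCH1 on chromosome 9 (136494433 to 136545786), NOTCH2 on chromosome 1 (119911553 to 120069626) and NOTCH3 on chromosome 19 (15159038 to 15200981). Among them, NOTCH1 had 15.7, 15.9 and 17.2 TPM with luteolin, against 6.33, 6.39 and 6.16 TPM with DMSO. Its log2 fold change was 1.24 ± 0.11, or 1.03 relative to the median, higher than 94.4% of genes. NOTCH3 had 23.6, 20.8 and 21.5 TPM with luteolin, against 30.8, 31.2 and 31.8 TPM with DMSO, −0.49 ± 0.06 and −0.71 relative to the median. The pair of receptors therefore lay on opposite sides of their DMSO levels. NOTCH2 averaged 17.9 ± 0.418 TPM with luteolin and 14.6 ± 0.615 TPM with DMSO (SD, n = 3 each), a log2 fold change of 0.28 that was 0.06 relative to the median and −0.02 with quantile normalization. NOTCH2 is uncertain, since NOTCH2NLA, NOTCH2NLB and NOTCH2NLC share its sequence and kallisto divides reads between such copies.

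JAG1, a Notch ligand, had 7.51, 8.79 and 8.95 TPM with luteolin, against 4.61, 3.83 and 4.95 TPM with DMSO, 0.79 ± 0.12 on the log2 scale and 0.57 relative to the median. The ligand JAG2 averaged 41.4 ± 1.38 TPM with luteolin and 30 ± 0.901 TPM with DMSO (SD, n = 3 each), 0.45 ± 0.06 and 0.23 relative to the median. Both ligands were above their DMSO range in every luteolin library. In all, 7 of the 10 members lay above and 3 below DMSO without overlap, in a comparison where 67.3% of all 13012 genes did not overlap, 46.2% above and 21.1% below.

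Other genes of the pathway, taken from 8 lists, are given next to these. Of 66 entries for further Notch genes with enough TPM, 39 were above DMSO and 11 below without overlap, beside 46.2% and 21.1% of all genes. NEURL1B stands 2 times among these entries. Their median log2 fold change was 0.37 beside 0.22 over all genes. The E3 ligase MIB2, which ubiquitinates Notch ligands, averaged 56.7 ± 4.05 TPM with luteolin and 13.7 ± 4.8 TPM with DMSO (SD, n = 3 each). HES2, another HES family gene, averaged 7.85 ± 3.21 TPM with luteolin and 0.631 ± 0.39 TPM with DMSO. The fringe LFNG, which modifies sugars on Notch, averaged 0.562 ± 0.252 TPM with luteolin and 1.86 ± 0.378 TPM with DMSO, and PSENEN, a gamma-secretase subunit, 50.1 ± 8.59 TPM with luteolin and 77.6 ± 8.43 TPM with DMSO. The non-canonical ligand DLK2 averaged 3.33 ± 0.395 TPM with luteolin and 5.74 ± 0.307 TPM with DMSO. Of the 9 cleavage genes (ADAM proteases and gamma-secretase), 7 were above and 1 below, and of 21 genes of the nuclear complex 10 and 3. Of 13 trafficking entries 8 were above and 2 below, both of the 2 being NEURL1B. NEURL1 fell short of the filter, and NEURL1B was counted in its place too. Of 6 glycosylation genes 3 were above and 2 below, of 5 other HES and HEY genes 2 and 1, and of 4 other ligands and receptors 2 and 2. The ligand DLL4, also in the 39 above, reached 1 TPM in A2780 with luteolin alone, so its place above DMSO follows from the filter. LFNG, in the 11 below, reached 1 TPM in every DMSO library and in no luteolin library of A2780. It passed the filter only through its DMSO level, so its place below DMSO follows in part from the filter. Of the further direct target list, 7 of 9 genes lay above and 1 below, among them the cell cycle inhibitor CDKN1A at 883 ± 93.4 TPM with luteolin and 49.5 ± 2.18 TPM with DMSO. The CDKN1A log2 fold change of 4.13 ± 0.07 was close to that of HES1, and CDKN1A responds to many pathways besides Notch. Of the 2 genes with enough TPM from a list that HES1 represses in other tissues, 1 lay below DMSO and the other overlapped it.

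In ES2 cells, HES4, HES6, HEY1, NOTCH1 and JAG1 rose with luteolin, and HES1 was not called. The 2-sided limma test was used here, with Benjamini-Hochberg adjustment over 12507 genes, and genes with an adjusted p under 0.05 were called. Of the 10 members, 7 had enough TPM to be tested, of which 5 rose and none fell, while 48.4% of all genes were called, 22.6% as higher and 25.8% as lower. HES1 had 59.1, 21 and 93.3 TPM in the luteolin libraries, against 37.3, 45.2 and 42.3 TPM in the DMSO libraries. Luteolin libraries 1 and 3 were above all DMSO libraries and library 2 was below all of them. The log2 fold change was 0.23 ± 0.37 with a 95% interval from −0.58 to 1.05 (adjusted p = 0.637). Without luteolin library 2 it was 0.83 with adjusted p = 0.00345, and without library 3 it was −0.22 with adjusted p = 0.598.

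HEY1 had 4.21, 3.56 and 5.32 TPM with luteolin, against 0.941, 0.734 and 1.29 TPM with DMSO in ES2 (log2 fold change 1.43 ± 0.16, limma adjusted p = 1.15e-05). HES4 had 6.52, 6.5 and 6.73 TPM with luteolin, against 2.31, 4.35 and 2.64 TPM with DMSO, a log2 fold change of 0.92 ± 0.17 (adjusted p = 0.000846). HES6 had 8.67, 8.99 and 8.5 TPM with luteolin, against 5.84, 3.94 and 4.6 TPM with DMSO, a log2 fold change of 0.76 ± 0.15 (adjusted p = 0.000966). For these 3 targets each luteolin library, library 2 included, was above each DMSO library, which held for 25.8% of all genes tested, and 54.4% did not overlap in either direction. Within the luteolin group, library 2 was the lowest for HES4 and HEY1 and the highest for HES6. NRARP stayed too low for the test, at 1.16 ± 0.182 TPM with luteolin and 0.68 ± 0.137 TPM with DMSO (SD, n = 3 each).

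The ligand JAG1 rose in ES2 by about as much as HEY1 on this scale. It had 19.4, 17.7 and 17.2 TPM with luteolin, against 5.57, 6.05 and 5.74 TPM with DMSO (log2 fold change 1.49 ± 0.09, limma adjusted p = 1.03e-07). The order of JAG1 and HEY1 depended on the pseudocount, since a pseudocount of 0.1 gave 1.63 for JAG1 and 2.05 for HEY1. NOTCH1 averaged 8.33 ± 0.358 TPM with luteolin and 6.88 ± 0.183 TPM with DMSO (SD, n = 3 each), and its log2 fold change of 0.24 ± 0.09 was called with adjusted p = 0.0331. That call was lost when any one of the DMSO libraries, or luteolin library 1 or 3, was left out, with a highest adjusted p of 0.108 and fold changes between 0.21 and 0.27. NOTCH2 averaged 46.9 ± 0.876 TPM with luteolin and 42.9 ± 3.45 TPM with DMSO and was not called (0.13 ± 0.07, adjusted p = 0.167). NOTCH3 and JAG2 were below 1 TPM in every ES2 library.

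**Figure D2:**
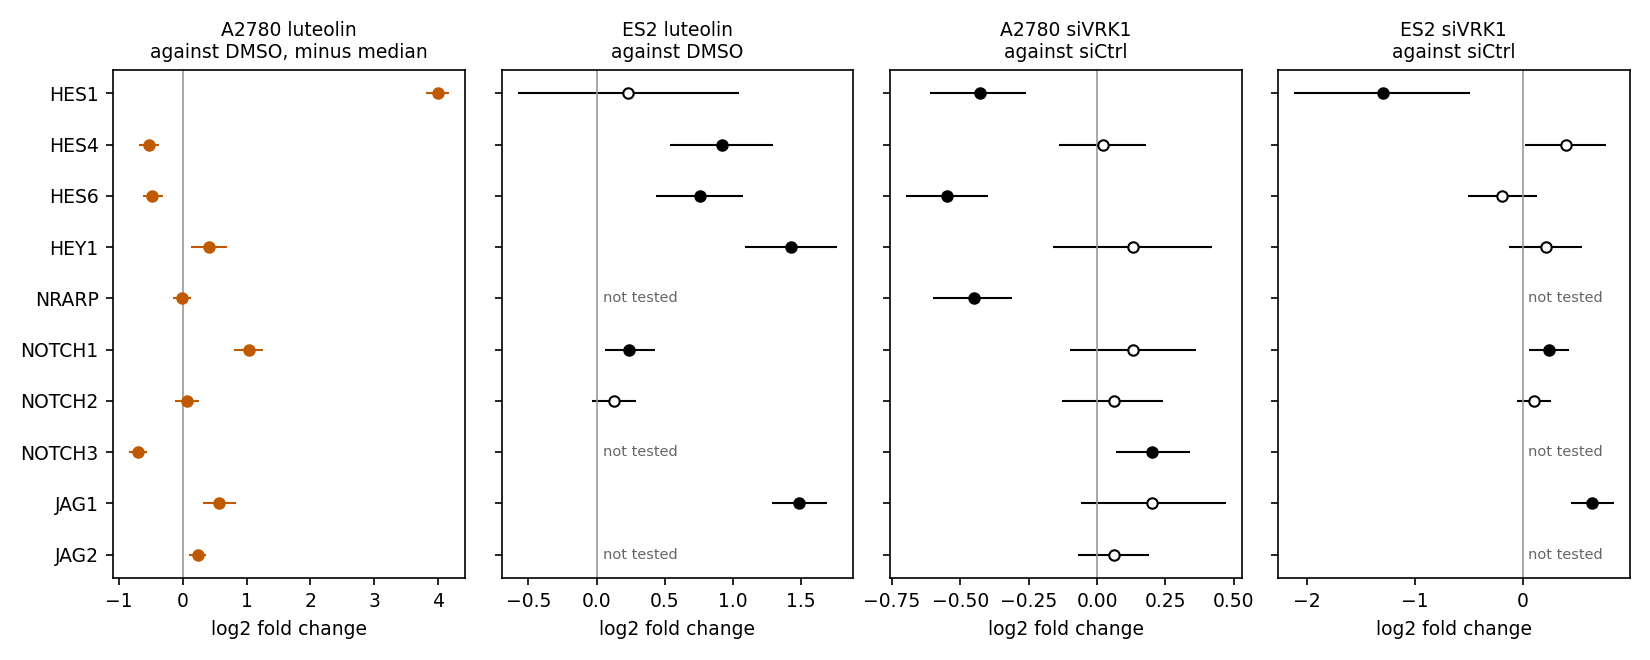
Log2 fold changes of TPM + 1 for the 10 members in 4 comparisons, with 95% intervals from the limma fits; each panel has its own horizontal scale. Filled black points passed the adjusted threshold, open points did not, and the A2780 luteolin panel, drawn relative to the median of all genes, carries no test; HES1 stands at 4.0 in that panel and at −1.30 in the ES2 siVRK1 panel.

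The difference between the lines in the luteolin effect contains the A2780 comparison and was therefore not tested. Given as ES2 minus A2780 on the log2 scale, it was −3.98 ± 0.42 for HES1 and −1.0 ± 0.13 for NOTCH1. It was 1.23 ± 0.19 for HES4, 1.02 ± 0.16 for HES6, 0.80 ± 0.20 for HEY1 and 0.70 ± 0.14 for JAG1, beside a median of −0.20 over all genes. HES4 and HES6 were lower with luteolin in all 3 A2780 libraries and higher in all 3 ES2 libraries.

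Of the further direct target list, 8 of 9 tested genes rose with luteolin in ES2 and none fell, with a median log2 fold change of 0.82 beside −0.00 over all genes. CDKN1A averaged 11.1 ± 3.12 TPM with luteolin and 3.5 ± 0.228 TPM with DMSO, with a log2 fold change of 1.39 (adjusted p = 1.51e-05). ID1, a helix-loop-helix inhibitor of differentiation, averaged 62.6 ± 7.44 TPM with luteolin and 24.4 ± 4.09 TPM with DMSO (1.33, adjusted p = 1.38e-06). SNAI2, a zinc finger repressor known for epithelial to mesenchymal transition, averaged 70.6 ± 12.7 TPM with luteolin and 28.6 ± 2.08 TPM with DMSO (1.26, adjusted p = 1.04e-06). These genes respond to many pathways besides Notch. Luteolin library 2 was the lowest of its group for CDKN1A, ID1 and SNAI2, at 7.55, 54.1 and 57.4 TPM in that order. Among the nuclear complex and its cofactors, 1 of 21 tested genes rose and 5 fell. The corepressor TLE4 averaged 2.73 ± 0.272 TPM with luteolin and 6.32 ± 1.19 TPM with DMSO (−0.96, adjusted p = 6.12e-05), and the coactivator MAML2 7.71 ± 0.06 TPM with luteolin and 11.4 ± 0.518 TPM with DMSO (−0.50, adjusted p = 9.28e-05). CCNC, a cyclin of the Mediator kinase module that marks the Notch intracellular domain for degradation, averaged 41.9 ± 3.93 TPM with luteolin and 64.2 ± 2.81 TPM with DMSO (−0.61, adjusted p = 1.77e-05). Over all 61 further genes tested, 15 rose and 13 fell, where 22.6% of all genes rose and 25.8% fell.

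With siVRK1, HES1 fell in both lines. In A2780 it fell together with HES6 and NRARP, while in ES2 it was the single member that fell and JAG1 and NOTCH1 rose. In A2780 all 10 members were tested, 3 fell and 1 rose, where 40.9% of 13012 genes were called, 27% as lower and 13.8% as higher. HES1 had 8.31, 7.92 and 8.34 TPM in A2780 siVRK1 libraries, against 10.5, 11.1 and 12.6 TPM with siCtrl (log2 fold change −0.43 ± 0.08, limma adjusted p = 0.00111). HES6 had 18.9, 19.1 and 17.5 TPM with siVRK1, against 27.5, 25.6 and 29.7 TPM with siCtrl (−0.55 ± 0.07, adjusted p = 5.91e-05). NRARP had 13.5, 13.1 and 13.2 TPM with siVRK1, against 18, 18.1 and 19.5 TPM with siCtrl (−0.45 ± 0.07, adjusted p = 0.000185). For these 3 genes every siVRK1 library was below every siCtrl library, as it was for 34.5% of all genes tested, and 53.3% did not overlap in either direction. With all 24 libraries in 1 fit, whose spread for HES1 includes the scattered ES2 luteolin libraries, the HES1 value of −0.43 was not called (adjusted p = 0.276).

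HES4 averaged 25.2 ± 1.43 TPM with siVRK1 and 25 ± 2.32 TPM with siCtrl in A2780 (SD, n = 3 each), a log2 fold change of 0.02 with a 95% interval from −0.14 to 0.18 (limma adjusted p = 0.869). HEY1 averaged 2.88 ± 0.395 TPM with siVRK1 and 2.54 ± 0.274 TPM with siCtrl (0.13 ± 0.13, adjusted p = 0.469). Of the receptors and ligands, NOTCH3 rose to 27.6 ± 0.39 TPM with siVRK1, against 23.8 ± 1.07 TPM with siCtrl (0.20 ± 0.06, adjusted p = 0.0198), and the call was lost without siCtrl library 2 (adjusted p = 0.0823) or siVRK1 library 2 (adjusted p = 0.0628). NOTCH1, NOTCH2, JAG1 and JAG2 had log2 fold changes of 0.13, 0.06, 0.20 and 0.06 in that order, none of them called.

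In ES2, where 7 members were tested, HES1 had 4.51 and 5.98 TPM in siVRK1 libraries a and b and 4.05 TPM in library 3, against 11.8, 13.4 and 14.7 TPM with siCtrl. Libraries a and b share 1 column name in the table, so they carry letters here. Each siVRK1 library had less HES1 than any siCtrl library, and the log2 fold change was −1.30 ± 0.37 (limma adjusted p = 0.0106), rank 12276 of 12507 genes from the top. Groups did not overlap for 63.1% of genes, 32.2% lower and 30.9% higher. In that comparison 54.8% of genes were called, 28% as lower and 26.8% as higher. JAG1 had 11.6, 12.6 and 13.2 TPM with siVRK1, against 6.78, 8.84 and 7.39 TPM with siCtrl (0.64 ± 0.09, adjusted p = 8.76e-05). NOTCH1 averaged 6.83 ± 0.312 TPM with siVRK1 and 5.63 ± 0.65 TPM with siCtrl (0.24 ± 0.09, adjusted p = 0.0303), a call lost without siCtrl library 1 or 3 or without siVRK1 library a or b, with a highest adjusted p of 0.128. HES4 had 1.51, 2.57 and 2.04 TPM with siVRK1, against 1.21, 1.28 and 1.37 TPM with siCtrl, which did not overlap and was not called (0.40 ± 0.17, adjusted p = 0.0702). It was called without siVRK1 library a (0.53, adjusted p = 0.0305). HES6, HEY1 and NOTCH2 were not called, with log2 fold changes of −0.19, 0.21 and 0.10 in that order.

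The difference between the lines in the siVRK1 effect, tested over all 24 libraries, was called for JAG1 among the 7 members with enough TPM in both lines, where 33.9% of 14328 genes were called. JAG1 differed by 0.44 ± 0.14 (limma adjusted p = 0.0242), that is, its siVRK1 effect was more positive in ES2 than in A2780, and the call was lost without any 1 of 5 libraries (highest adjusted p = 0.0726). NRARP entered this fit through its A2780 levels alone and was below 1 TPM in ES2 libraries of both siRNA groups, where the scale of TPM + 1 holds a change near 0, so its difference of 0.61 restates the A2780 fall and is given without a test. For HES1 the difference was −0.87 with a 95% interval from −1.75 to 0.01 (adjusted p = 0.121). The spread behind that interval includes the scattered ES2 luteolin libraries, which are not part of this difference. The HES1 difference was called when only the 4 siRNA groups entered the fit (adjusted p = 0.00193). HES4 was called without ES2 siVRK1 library a (0.51, adjusted p = 0.0413) and HES6 without ES2 siCtrl library 3 (0.51, adjusted p = 0.0113).

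Among the further pathway genes, 9 of 66 entries, with NEURL1B 2 times among them, rose and 16 fell in A2780 with siVRK1. Of all genes there, 13.8% rose and 27% fell. In ES2, 14 of 61 rose and 19 fell, where 26.8% of all genes rose and 28% fell. CCNC averaged 33 ± 1.59 TPM with siVRK1 and 65.9 ± 1.58 TPM with siCtrl in A2780 (−0.98, limma adjusted p = 5.14e-06), and 25.7 ± 1.76 TPM with siVRK1 and 95.3 ± 3.41 TPM with siCtrl in ES2 (−1.85, adjusted p = 7.62e-10). CDKN1A averaged 355 ± 4.48 TPM with siVRK1 and 173 ± 8.73 TPM with siCtrl in A2780 (1.03, adjusted p = 2.42e-07). ID1 averaged 112 ± 0.979 TPM with siVRK1 and 209 ± 14.6 TPM with siCtrl in A2780 (−0.89, adjusted p = 6.8e-08). RFNG, a fringe, rose in A2780 (0.84, adjusted p = 7.6e-05), as did HES7, a HES gene of the segmentation clock (0.71, adjusted p = 0.0013), and the corepressor TLE2 fell (−0.90, adjusted p = 0.0016).

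RBPJ, the DNA-binding partner of Notch, rose in ES2 to 19.5 ± 0.423 TPM with siVRK1, against 9.64 ± 1.81 TPM with siCtrl (0.96, limma adjusted p = 5.88e-06). TLE4 averaged 9.79 ± 0.964 TPM with siVRK1 and 3.1 ± 0.402 TPM with siCtrl in ES2 (1.40, adjusted p = 1.7e-06), and CDKN1A 14.6 ± 1.2 TPM with siVRK1 and 4.86 ± 0.148 TPM with siCtrl (1.41, adjusted p = 8.82e-06). With DMSO in ES2, RBPJ averaged 19.2 ± 0.607 TPM, TLE4 6.32 ± 1.19 TPM and CDKN1A 3.5 ± 0.228 TPM. The siCtrl mean was thus below DMSO for RBPJ and TLE4 and above it for CDKN1A. The gamma-secretase subunit APH1B fell to 5.63 ± 0.436 TPM with siVRK1, against 14.4 ± 0.909 TPM with siCtrl (−1.22, adjusted p = 4.04e-07). Of the 9 cleavage genes, 5 fell and 1 rose in ES2, where 28% of all genes fell and 26.8% rose. Their median was −0.29 beside −0.00 over all genes. All 9 were higher with siCtrl than with DMSO in ES2, as given below. MIB2 fell as well, to 7.87 ± 1.17 TPM with siVRK1, against 17 ± 0.492 TPM with siCtrl (−1.03, adjusted p = 1.44e-06).

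**Figure D3:**
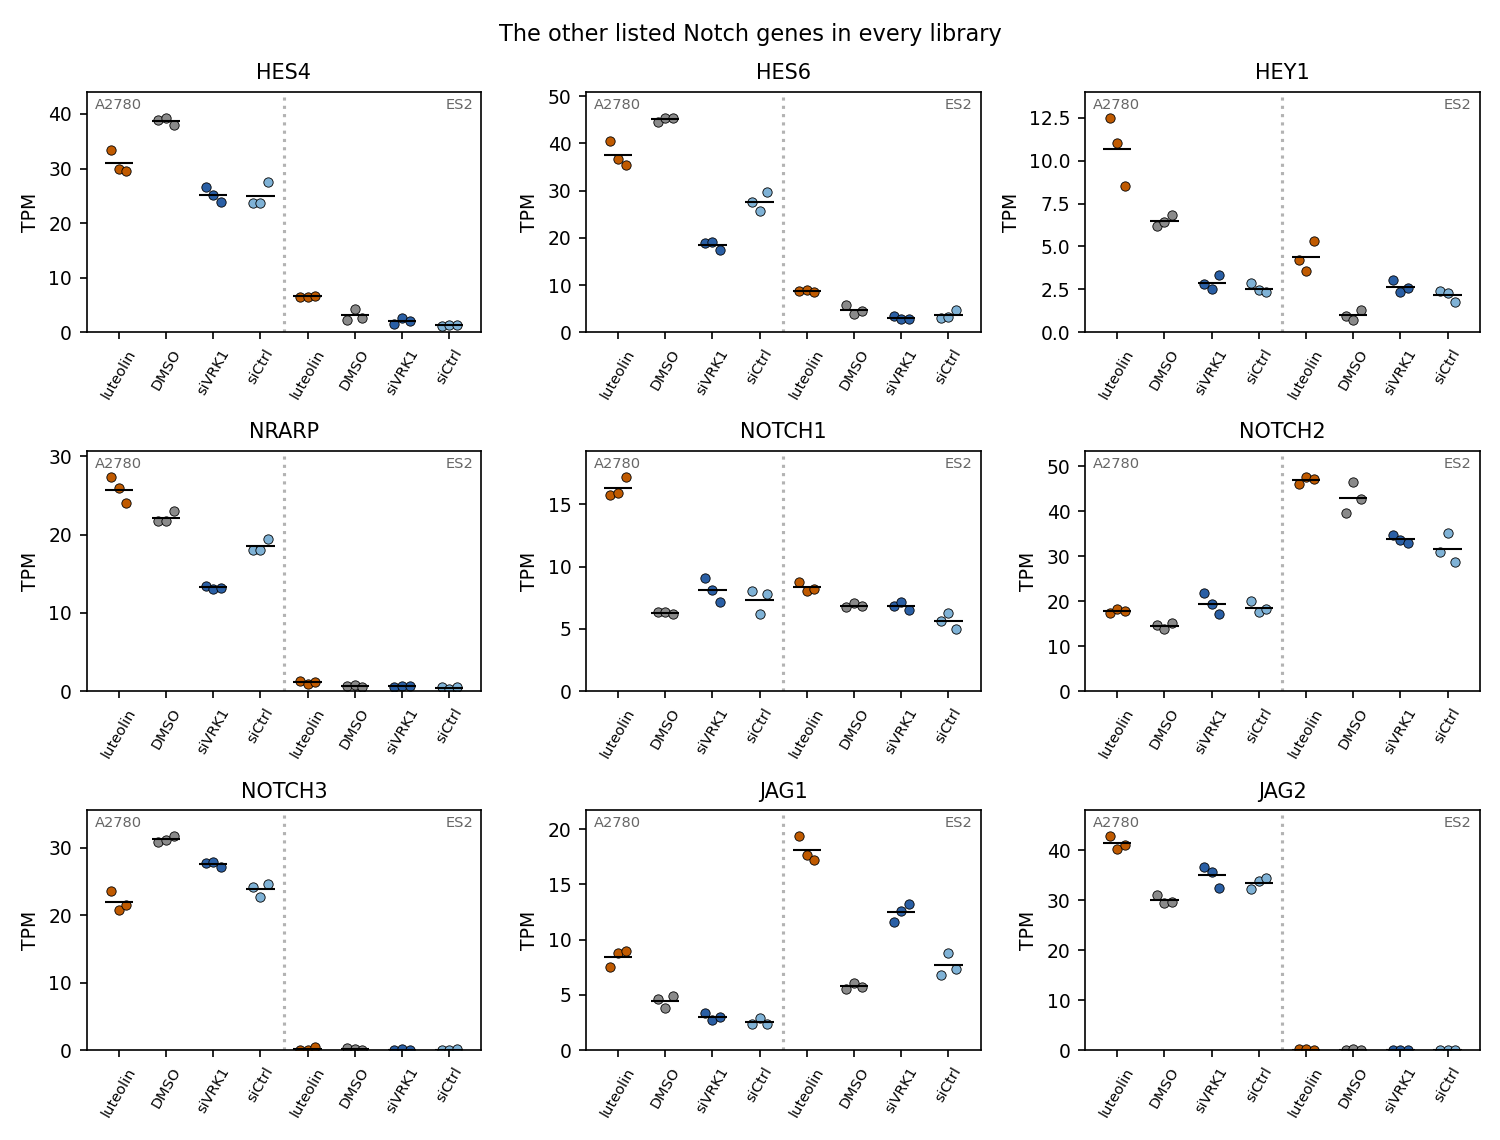
TPM of the other 9 members in each library, by line and treatment, on linear axes that start at 0; points are libraries and bars are group means. NRARP, NOTCH3 and JAG2 lie near 0 in all ES2 libraries, and HES4, HES6 and HEY1 are lower with siCtrl than with DMSO in A2780.

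The 2 kinds of control differed in the level of most members, which bears on how far luteolin and siRNA libraries can be set side by side. All 5 target genes were lower with siCtrl than with DMSO in A2780, and HES1 and HES4 were lower in ES2 too. Transfection and solvent, and any difference in culture or preparation that went with them, cannot be told apart. In A2780, 7 members fell and 2 rose, where 58.1% of genes were called, 10.9% as lower and 47.2% as higher, with a median of 0.24 over all genes. Relative to that median, HEY1 lay at −1.32, HES6 at −0.93, HES4 at −0.86, HES1 at −0.64 and NRARP at −0.49 on the log2 scale. HEY1 averaged 2.54 ± 0.274 TPM with siCtrl and 6.48 ± 0.334 TPM with DMSO (limma adjusted p = 3.56e-05). HES6 averaged 27.6 ± 2.05 TPM with siCtrl and 45 ± 0.461 TPM with DMSO (adjusted p = 9.17e-06). HES1 averaged 11.4 ± 1.08 TPM with siCtrl and 15.3 ± 1.09 TPM with DMSO (−0.39 ± 0.08, adjusted p = 0.00131), and with all 24 libraries in the fit this was not called (adjusted p = 0.28). Of 66 entries for further pathway genes, with NEURL1B 2 times among them, 37 rose and 6 fell. CDKN1A was among the rises, at 173 ± 8.73 TPM with siCtrl and 49.5 ± 2.18 TPM with DMSO (1.54 relative to the median, limma adjusted p = 7.13e-09). FBXW7 averaged 13.2 ± 3.18 TPM with siCtrl and 5.03 ± 0.545 TPM with DMSO (0.97 relative to the median, adjusted p = 3.63e-05). ADAM10, a protease that cuts Notch, rose, at 110 ± 2.27 TPM with siCtrl and 61.7 ± 11.2 TPM with DMSO (0.60 relative to the median, limma adjusted p = 3.96e-05).

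JAG1 and NOTCH3 also fell in A2780, to −0.88 and −0.62 relative to the median. NOTCH2 was called as higher at 0.33, 0.09 relative to the median, and the call was lost with median-of-ratios scaling (0.08, limma adjusted p = 0.342). JAG2 was called as higher at 0.15, but lay at −0.09 relative to the median, at −0.11 with median-of-ratios scaling and at −0.09 with quantile normalization. The JAG2 call was also lost without DMSO library 2 or 3 or siCtrl library 2 or 3, with a highest adjusted p of 0.122. NOTCH1 was not called (0.19, adjusted p = 0.148), turned to −0.05 and −0.14 with the same scalings, and was called without siCtrl library 2 (0.29, adjusted p = 0.0354).

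In ES2, 4 of the 7 tested members fell with siCtrl against DMSO and 2 rose, where 56.2% of genes were called, 21.5% as lower and 34.7% as higher. HES1 averaged 13.3 ± 1.49 TPM with siCtrl and 41.6 ± 4.02 TPM with DMSO (−1.57 ± 0.37, limma adjusted p = 0.00327). HES4 averaged 1.28 ± 0.0789 TPM with siCtrl and 3.1 ± 1.09 TPM with DMSO (−0.81 ± 0.17, adjusted p = 0.00157). NOTCH2 fell by 0.43 on the log2 scale (adjusted p = 0.000286) and NOTCH1 by 0.25 (adjusted p = 0.0249), a NOTCH1 call that was lost without DMSO library 2 or 3 or siCtrl library 1 or 3 (highest adjusted p = 0.109). HEY1 went the other way, with 2.16 ± 0.335 TPM with siCtrl and 0.989 ± 0.283 TPM with DMSO (0.67 ± 0.16, adjusted p = 0.00273), and JAG1 rose by 0.35 (adjusted p = 0.00694). HES6 was not called (−0.32, adjusted p = 0.0798) but was without DMSO library 2 (−0.43, adjusted p = 0.0354) or siCtrl library 3 (−0.46, adjusted p = 0.0165). All 9 cleavage genes rose with siCtrl in ES2, with a median of 0.65 beside 0.08 over all genes, and RBPJ fell to 9.64 ± 1.81 TPM with siCtrl, against 19.2 ± 0.607 TPM with DMSO (−0.94, adjusted p = 7.35e-06). ID3, a relative of ID1, averaged 12.6 ± 0.161 TPM with siCtrl and 56.2 ± 1.19 TPM with DMSO (−2.07, adjusted p = 1.31e-11).

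The fall of HES1 between the controls rested in large part on 1 of its 2 listed transcripts. HES1-201 is the protein-coding transcript (chromosome 3, 194136145 to 194138732, plus strand, GRCh38) and HES1-202 is annotated in GENCODE 29 as a retained-intron transcript (194136148 to 194137284). In ES2, HES1-202 had 0.508, 0.489 and 0.239 TPM with siCtrl, against 15.8, 24.2 and 20.2 TPM with DMSO. HES1-201 had 11.3, 13 and 14.5 TPM with siCtrl, against 21.5, 21 and 22.2 TPM with DMSO. The difference in the retained-intron transcript was thus far larger than that in the coding one. With coding transcripts alone, an alternative chosen once the data were known, the HES1 fold change was −0.71 in ES2 and −0.18 in A2780, and neither was called (limma adjusted p = 0.14 for both).

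The retained-intron transcript made up 31.4 ± 4.24% of HES1 TPM with luteolin and 19.9 ± 2.99% with DMSO in A2780 (SD, n = 3 each). In A2780 it made up 11.7 ± 5.32% with siVRK1 and 5.9 ± 2.71% with siCtrl. In ES2 the share was 45.2 ± 3.32% with luteolin and 47.8 ± 5.61% with DMSO, against 4.44 ± 4.11% with siVRK1 and 3.19 ± 1.4% with siCtrl. The share was higher in every luteolin and DMSO library than in every siRNA library of its line. Over all genes in A2780, retained-intron transcripts held 5.08% to 5.39% of TPM with luteolin, 3.26% to 3.48% with DMSO, 4.09% to 4.72% with siVRK1 and 4.36% to 4.57% with siCtrl. The share of all genes was thus higher with either siRNA than with DMSO in A2780, while that of HES1 was lower. In ES2 the share of all genes was 3.96% to 4.7% over all libraries. Its part in the HES1 shares was not tested, and kallisto estimates such shares from overlapping sequence.

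**Figure D4:**
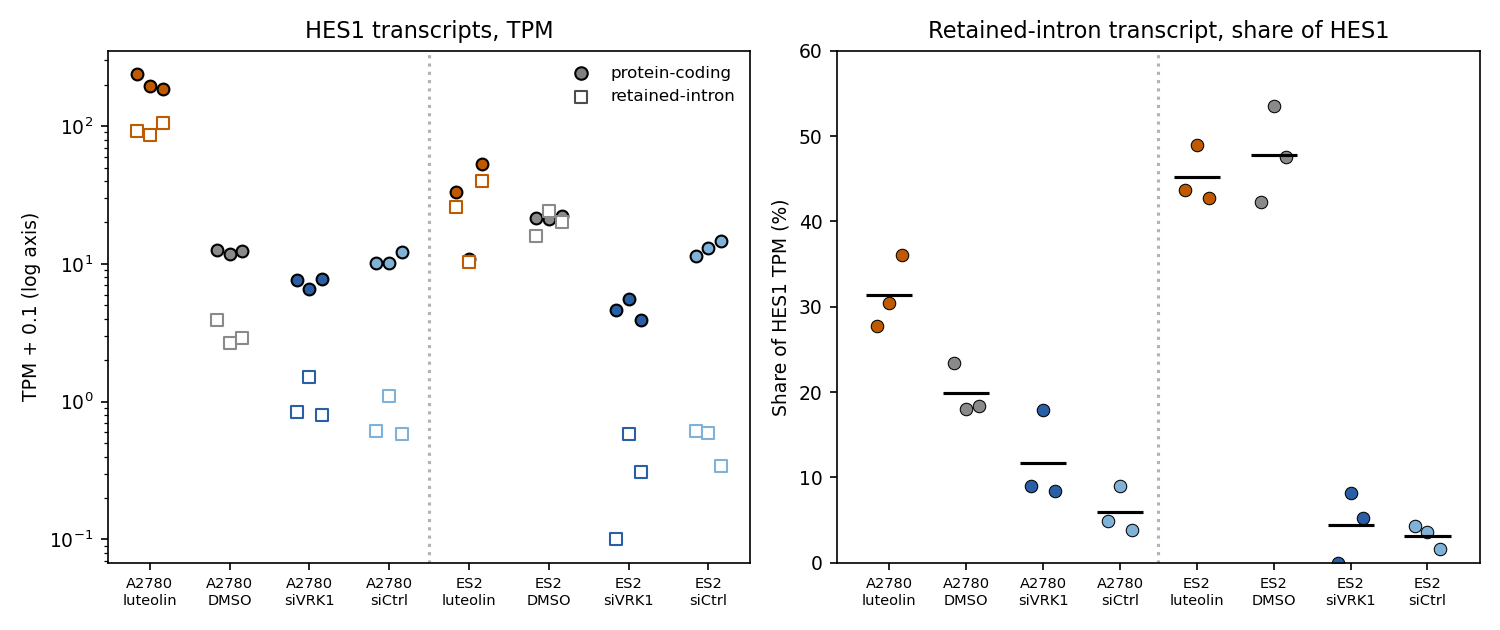
Left, TPM of the protein-coding and retained-intron transcripts of HES1 in each library, on a log axis after adding 0.1; right, the retained-intron share of HES1 TPM in percent, with bars at group means. The share is 42.3% to 53.5% in ES2 DMSO libraries and at most 8.12% in ES2 siRNA libraries, while both transcripts are high in A2780 with luteolin.

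The high HES1 level with luteolin in A2780 was present in both transcripts. HES1-201 had 239, 197 and 187 TPM with luteolin, against 12.6, 11.7 and 12.4 TPM with DMSO, and HES1-202 had 92.2, 86.1 and 106 TPM with luteolin, against 3.85, 2.58 and 2.8 TPM with DMSO. With coding transcripts alone the log2 fold change was 3.97. The siVRK1 falls were likewise called on coding transcripts, at −0.51 in A2780 (limma adjusted p = 0.000973) and −1.31 in ES2 (adjusted p = 0.0124).

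For other members the transcript makeup limits what the sum stands for. Of JAG2 in A2780 DMSO libraries, 37.4% of TPM lay in the retained-intron transcript JAG2-203, 21.8% in the retained-intron transcript JAG2-204 and 35.2% in the coding transcript JAG2-201. The retained-intron transcript JAG1-204 held 14.4% of JAG1 with luteolin and 2% with DMSO in A2780, and on coding transcripts alone the JAG1 log2 fold change there was 0.53 in place of 0.79. HEY1 likewise lay at 0.36 in place of 0.63. These JAG1 and HEY1 values are not relative to the median of all genes, which was 0.22 with all transcripts. Between 90.5% and 98.3% of NOTCH1 TPM, as group means, came from transcripts with no entry in GENCODE 29, so coding transcripts alone could not be taken for NOTCH1.

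The lines differed in which members they expressed. ES2 carried more HES1, NOTCH2 and JAG1 than A2780 in DMSO, and hardly any NRARP, NOTCH3 or JAG2. NRARP, NOTCH3 and JAG2 entered the fit between the lines through their A2780 levels alone, so they are described without a test. Of the other 7 members, HES1, NOTCH2 and JAG1 were called as higher and HES4, HES6 and HEY1 as lower in ES2 with DMSO, where 76.4% of 14328 genes were called, 35.2% as higher and 41.2% as lower. NOTCH3 had 0.19 ± 0.135 TPM in ES2 and 31.3 ± 0.526 TPM in A2780, and JAG2 had 0.0815 ± 0.12 TPM in ES2 and 30 ± 0.901 TPM in A2780. NRARP had 0.68 ± 0.137 TPM in ES2 and 22.2 ± 0.724 TPM in A2780. HES4, HES6 and HEY1 had log2 differences of −3.31, −3.00 and −1.92. NOTCH2 had 42.9 ± 3.45 TPM in ES2 and 14.6 ± 0.615 TPM in A2780 (1.49 ± 0.08, limma adjusted p = 2.89e-13). This NOTCH2 difference is uncertain, since the copies that share its sequence were higher in ES2 too. With DMSO, NOTCH2NLA averaged 65.5 TPM in ES2 and 9.83 TPM in A2780, NOTCH2NLB 9.93 and 2.62 TPM, and NOTCH2NLC 13.6 and 4.83 TPM. HES1 had 41.6 ± 4.02 TPM in ES2 and 15.3 ± 1.09 TPM in A2780 (1.38 ± 0.30, adjusted p = 0.000284), a difference of 0.77 on coding transcripts alone (adjusted p = 0.0297). JAG1 differed by 0.32 (adjusted p = 0.00806), a call lost without A2780 DMSO library 2 (0.23, adjusted p = 0.0601), and NOTCH1 was not called (0.11, adjusted p = 0.274).

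With siCtrl the difference between the lines in HES1 was smaller, 13.3 ± 1.49 TPM in ES2 and 11.4 ± 1.08 TPM in A2780, and it was not called (0.20 ± 0.30, limma adjusted p = 0.536). Of the 7 members with enough TPM in both lines, NOTCH2 and JAG1 were called as higher and HES4, HES6 and NOTCH1 as lower in ES2, where 80.5% of genes were called, 29.8% as higher and 50.7% as lower. JAG1 had 7.67 ± 1.06 TPM in ES2 and 2.52 ± 0.313 TPM in A2780 (1.30 ± 0.10, or 1.57 relative to the median of −0.27, adjusted p = 2.3e-10). HES4 and HES6 had differences of −3.50 and −2.63, and NOTCH2 one of 0.73 (adjusted p = 3.51e-08). The NOTCH2 value is again uncertain, since NOTCH2NLA, NOTCH2NLB and NOTCH2NLC were higher in ES2 with siCtrl as well. NRARP, NOTCH3 and JAG2 were below 1 TPM in all ES2 siCtrl libraries. HEY1 was not called, at −0.17 on the log2 scale and 0.02 with median-of-ratios scaling. NOTCH1 was called as lower at −0.33 (adjusted p = 0.00252), but its value relative to the median was −0.06 and the call was lost with median-of-ratios scaling (−0.10, adjusted p = 0.299).

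Over all 8 groups, HES1 was highest in A2780 luteolin at 303 ± 25.4 TPM, followed by ES2 luteolin at 57.8 ± 36.2 TPM, which overlapped ES2 DMSO at 41.6 ± 4.02 TPM. Next came A2780 DMSO at 15.3 ± 1.09 TPM, ES2 siCtrl at 13.3 ± 1.49 TPM and A2780 siCtrl at 11.4 ± 1.08 TPM, each overlapping the next. A2780 siVRK1 at 8.19 ± 0.231 TPM and ES2 siVRK1 at 4.85 ± 1.01 TPM lay at the low end, apart from their neighbours (SD, n = 3 each). HES4 followed another order, with all 4 A2780 groups, from 25 ± 2.32 to 38.7 ± 0.659 TPM, above all ES2 groups, from 1.28 ± 0.0789 to 6.58 ± 0.125 TPM.

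The likeness of other genes to this pattern was measured as the Pearson correlation with HES1 over the 8 group means of log2(TPM + 1), among 11578 genes, and is a description in which the A2780 luteolin mean of HES1 lies far from the other 7. The 5 most alike were ADM5 (0.951), SOCS4 (0.935), ITM2B (0.933), BRICD5 (0.927) and PRKCSH (0.924), none of which is on a Notch list. SOCS4 averaged 20 TPM with luteolin and 5.9 TPM with DMSO in A2780, and 12.7 TPM with luteolin and 8.16 TPM with DMSO in ES2. Among the members, NOTCH1 was most like HES1 at 0.804 and HEY1 followed at 0.545. The coefficients of HES4, HES6 and NRARP were 0.254, 0.333 and 0.234 in that order.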

How the data were processed

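The authors' deposited table gives 1 TPM value per transcript and library. Per the submitters' processing notes, FastQC, kallisto and hg19 were used, with no versions stated. TPM sums to 1000000 in each library, so depth is unknown and no counting interval was given. Of 193845 lines, 1958 repeated others with equal values and were dropped. TPM was summed per symbol, leaving out 9542 transcripts without a symbol (0.514% to 1.03% of TPM) and 19 with more than 1. Within groups, log2 levels correlated across genes at 0.991 to 0.995. Transcript types and positions come from GENCODE 29 (GRCh38, 160905 of 182326 transcripts matched) and promoters from RefSeq (GRCh38.p14).

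Log2 values of TPM + 1 were compared with limma-trend (limma 3.58.1, R 4.3.3, 2-sided, Benjamini-Hochberg over all genes with at least 1 TPM in at least 3 libraries, threshold 0.05), with 12 libraries within a line and 24 between lines. This scale understates changes of low genes. The steps were tested on simulated data. Values after ± are standard errors of log2 fold changes and SDs of TPM and percentages. Log2 values are given relative to the median of all genes where rescaling moved that median by over 0.1. The replicate numbers of the titles paired no libraries. The members and the lists of other Notch genes were chosen with earlier results of these data known. Genes named from those lists are up to 3 rises and 3 falls per comparison, past the threshold (for A2780 luteolin, without overlap), with non-overlapping groups and a mean of at least 1 TPM. Genes most like HES1 needed a mean of at least 5 TPM in 1 group. Alternatives were other pseudocounts, filters, scalings, sets of libraries, prior variances, a block for the replicate number and the omission of single libraries. Coding transcripts alone, and the block with ES2 siVRK1 libraries a and b exchanged, were chosen once the data were known.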

Additional observations from a re-analysis of the deposited data

Results flagged for a closer look

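HES4 and HES6 went in opposite directions with luteolin in the lines. Every A2780 luteolin library was below, and every ES2 luteolin library above, the DMSO libraries of its line. The difference of the effects, ES2 minus A2780, was 1.23 for HES4 and 1.02 for HES6 on the log2 scale, and it was not tested.

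The siVRK1 effect differed between the lines for JAG1, by 0.44 on the log2 scale (limma adjusted p = 0.0242), with a mean of 12.5 TPM with siVRK1 and 7.67 TPM with siCtrl in ES2, and 3.05 TPM with siVRK1 and 2.52 TPM with siCtrl in A2780. The JAG1 call was lost without any 1 of 5 libraries, namely A2780 siVRK1 2, A2780 siCtrl 2, ES2 siVRK1 3, ES2 siCtrl 1 and ES2 siCtrl 3, with a highest adjusted p of 0.0726 and differences between 0.36 and 0.42. The value for NRARP was 0.61, but NRARP was below 1 TPM in every siRNA library of ES2 and entered the fit through A2780 alone, so this value restates its A2780 fall.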

How the results depend on the processing

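Counts of all genes called stayed within 1.5 times the reported count in all 145 alternatives. For HES1 in A2780 with luteolin, the log2 fold change of 4.22 was 3.92 with a pseudocount of 5, 3.97 with median-of-ratios scaling, 4.08 with quantile normalization and 3.97 with coding transcripts alone, and 4.15 to 4.27 when 1 library was left out. For HES1 with luteolin in ES2, values without 1 library ran from −0.22 to 0.83, with adjusted p from 0.00345 to 0.873, and the difference between the lines ran from −4.44 to −3.39. With all 24 libraries in the fit, HES1 was not called at −0.43 in A2780 siVRK1 (limma adjusted p = 0.276) or −0.39 in A2780 siCtrl against DMSO (adjusted p = 0.28), and 2 in place of 4 members were called in A2780 siVRK1. Coding transcripts alone gave HES1 −0.18 in A2780 and −0.71 in ES2 for siCtrl against DMSO, neither called. The spread in the ES2 fit includes its scattered luteolin libraries. The line difference in the siVRK1 effect of HES1, −0.87, was called in the fit of the groups compared alone (adjusted p = 0.00193). In that difference the number of members called, NRARP included, was 2, against 1 with a pseudocount of 0.1, 4 with a pseudocount of 5 and 1 to 3 without 1 library.

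Signs turned as follows. With median-of-ratios scaling, NRARP in A2780 luteolin gave −0.05, NOTCH1 and JAG2 in A2780 siCtrl against DMSO −0.05 and −0.11, HEY1 between lines in siCtrl 0.02 and NOTCH2 in the siVRK1 line difference −0.06. Quantile normalization gave these −0.01, −0.14, −0.09, 0.09 and −0.03 in the same order, and −0.02 for NOTCH2 in A2780 luteolin. Coding transcripts alone gave −0.00 for JAG2 in A2780 siVRK1, 0.07 for HEY1 between lines in siCtrl and −0.21 for HEY1 in the siVRK1 line difference. A pseudocount of 0.1 gave 0.19 for JAG2 in that difference, and −0.05 for NOTCH3 and 0.01 for JAG2 in the luteolin line difference. Without 1 library, A2780 siVRK1 gave −0.02 to 0.09 for HES4 and −0.03 to 0.14 for NOTCH2, and the siVRK1 line difference gave −0.04 to 0.12 for NOTCH2, −0.01 to 0.16 for HEY1 and −0.08 to 0.01 for JAG2. The cause was not tested.

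The replicate number did not pair libraries, since correlations of same-numbered deviations ran from −0.05 to 0.04. With the replicate block, 5 members were called in ES2 luteolin, 4 in A2780 siVRK1, 4 in ES2 siVRK1, 8 in A2780 siCtrl and 6 in ES2 siCtrl against DMSO, 8 and 8 between the lines in DMSO and siCtrl, and 2 in the siVRK1 line difference. Counts between the lines include NRARP, NOTCH3 and JAG2. With libraries a and b exchanged the ES2 siVRK1 count was 3. Depth is unknown, so members below 1 TPM cannot be told from absent ones.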
